A study of Mus musculus with 37 samples.

Results

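The 10 genes described here encode enzymes, or essential subunits of enzymes, that add methyl groups to histone H3 or take them off in the mouse oocyte. Kmt2b, Setd2, Setdb1, Ehmt1, Ehmt2, Ezh2, Eed, Suz12, Kdm1a and Kdm1b were taken by symbol, and they are 10 of 54752 genes and 101 of 138835 transcripts in the count tables. RNA of 37 single C57BL/6 oocytes was amplified by Smart-seq2, a full-length method that reads polyadenylated RNA. Batch A holds 6 oocytes at the germinal vesicle stage (GV_A), before meiosis resumes, and 6 at metaphase II (MII_A), the stage at which the ovulated egg waits for fertilization. Batch B holds 10 GV oocytes (GV_B) and 15 at metaphase I (MI_B). No other genotype or treatment was used. Per the study's methods, the females were 6 to 8 weeks old and received 5 IU of PMSG, GV oocytes were collected 48 h later, MI oocytes came from GV oocytes cultured for 8 h, and MII oocytes were taken from the oviduct 15 h after 5 IU of hCG. MI oocytes thus matured in culture and MII oocytes in the animal, and MI and MII were never in the same batch. The labels name no mouse for an oocyte, so p-values measure only the spread between oocytes, some of which may come from the same animal.

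Total gene counts per oocyte ran from 7509875 to 12648629 in GV_A, from 9930485 to 13988444 in MII_A, from 7184205 to 17724506 in GV_B and from 2709280 to 19390128 in MI_B. In MII_A oocyte 1, 29836 genes had a count, while the other MII_A oocytes had 19587 to 22620, so results of batch A are also given without it where it changes them. MI_B oocyte 15 had the lowest depth of all oocytes. Spike-in RNA was counted in batch A, at 44663 to 128319 counts in GV_A and 120280 to 143062 in MII_A, and at 32 counts or fewer in batch B. Oocyte markers were abundant in all 4 groups, with summed medians of 11397.4 CPM (counts scaled to library size with TMM factors) in GV_A, 7428.4 in MII_A, 5846.5 in GV_B and 5044.2 in MI_B. Of the 15 cumulus and granulosa markers, the summed medians were 28.5, 20.6, 30.8 and 25.2 CPM in the same order, and Amhr2 and Ptx3 had no count in GV_A, nor did Foxl2, Amh, Amhr2 and Ptx3 in GV_B and MI_B. Cyp19a1, the aromatase, was the most abundant of that list by TPM at GV_A, at 13.4 ± 2.96 TPM (SD, n = 6). The 8 blood and immune markers summed to medians of 1.65 to 3.75 CPM over the 4 groups, and to 14.0 CPM in MII_A oocyte 1, and Adgre1, Cd3e and Lyz2 had no count in GV_A. By TPM at GV_A the most abundant oocyte marker was Zp3, a zona pellucida protein, at 3590.7 ± 1184.4, and the most abundant blood marker Cd68 at 1.4 ± 0.574. Of the 5 cumulus markers tested in batch B, 2 passed, Gja1 and Ccnd2, which fell from GV to MI, by log2 changes of -3.42 and -3.69 (edgeR adjusted p = 0.0174 for each), and their part in other results was not tested. In batch A 7 of 12 oocyte markers passed in edgeR with TMM scaling and were lower at MII, against 11.5% of all genes, and 0 were higher. They were Zp1, Zp2, Zp3, Ooep, Nlrp5, Padi6 and Figla, and their part in other results was not tested either.

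Methylation of histone H3 is set by writers that are specific for a lysine and removed by erasers. In the growing oocyte, KMT2B places trimethylation on H3K4 at untranscribed regions, SETD2 places trimethylation on H3K36 over transcribed genes and so guides DNA methylation, and SETDB1 and the EHMT1 and EHMT2 pair methylate H3K9 at transposable elements and other silent chromatin. Polycomb repressive complex 2, built on EZH2, EED and SUZ12, methylates H3K27, while KDM1A and KDM1B remove methyl groups from H3K4, the latter before imprints are laid down. Transcription is largely silent in the fully grown oocyte, and stored messenger RNA is degraded or translated as meiosis proceeds.

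Levels of different genes were compared per length, as TPM, in which transcript counts are divided by transcript length and scaled to the same sum in every oocyte. Ezh2 had the highest mean TPM of the 10 members in each of the 4 groups, at 307 ± 52.8 in GV_A (SD, n = 6), 312 ± 21 in MII_A (n = 6), 438 ± 97.9 in GV_B (n = 10) and 420 ± 74.2 in MI_B (n = 15). In GV_A it was followed in mean TPM by Eed at 187 ± 22.7, Kdm1b at 164 ± 89.3, Setdb1 at 148 ± 38.4 and Suz12 at 103 ± 16. The TPM ranges of Eed and Kdm1b, of Kdm1b and Setdb1, and of Setdb1 and Suz12 overlapped, and their order was not tested. Within an oocyte, Eed was above Kdm1b in 4 of 6, Kdm1b above Setdb1 in only 2 of 6, and Setdb1 above Suz12 in 5 of 6. Setd2 lay at 63.2 ± 14.3 TPM, Kdm1a at 24.3 ± 6.31, Kmt2b at 16.8 ± 7.06, Ehmt1 at 16.5 ± 4.06 and Ehmt2 at 2.85 ± 1.25 TPM. Setd2 was above Kdm1a, and Ehmt1 above Ehmt2, in each of the 6 oocytes without overlap in TPM, while the TPM ranges of Kdm1a, Kmt2b and Ehmt1 overlapped, with Kdm1a above Kmt2b in 6 of 6 oocytes and Kmt2b above Ehmt1 in 2 of 6. Among 12929 tested genes with a TPM, Ezh2 stood at percentile 97.5 at GV_A, Eed at 95.2, Kdm1b at 94.4, Setdb1 at 93.5, Suz12 at 90.1 and Ehmt2 at 19.6 by mean TPM. Kdm1b took rank 3 by mean TPM at GV_A and rank 5 at MII_A, where Suz12 at 101 ± 8.11 TPM and Kdm1b at 97.9 ± 15.6 TPM overlapped. In batch B it had rank 6 in mean TPM at both stages, at 48.4 ± 16.2 in GV_B and 61.0 ± 36.8 in MI_B.

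Between GV and MII, the comparison that asks how stored RNA changes over the whole of maturation, Setdb1, Ehmt1, Ezh2 and Kdm1a were higher at MII relative to other genes, by 1.3 to 1.54 times in edgeR with TMM scaling, while with spike-in scaling each had a negative log2 difference that did not pass. The 6 other members did not pass. These 4 of 10 members had an adjusted p under 0.05 in edgeR with TMM scaling, and 9.06% of 12930 genes passed and were higher. None of the members passed and was lower, against 11.5% of all genes. At the study's own call, which also asks for a change over 2-fold, 0 of 10 members were called, against 8.47% of all genes. The oocytes of GV_A and MII_A did not overlap in CPM for 3 of 10 members, Setdb1, Ezh2 and Kdm1a, against 9.78% of genes in either direction. In TPM the same oocytes overlapped for all 3, at 104 to 217 in GV_A and 155 to 187 in MII_A for Setdb1, 245 to 400 and 289 to 345 for Ezh2, and 16.6 to 32.2 and 28.0 to 34.8 for Kdm1a, and the mean TPM of Ezh2 was 307 and 312.

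TMM scaling assumes that most genes keep their share of the library, and in batch A the spike-ins gave another picture. With spike-in scaling the median log2 change of all genes moved from 0.01 to -0.72, and all 10 members had a negative log2 difference, so the direction of Setdb1, Ehmt1, Ezh2 and Kdm1a turned. Relative to that median, Kdm1a stood 0.54 higher on the log2 scale, Ehmt1 0.48, Kmt2b 0.41, Setdb1 0.37, Ezh2 0.35, Setd2 0.32 and Suz12 0.16, while Eed stood at -0.10, Kdm1b at -0.43 and Ehmt2 at -0.72. With spike-in scaling 3 of 10 members passed, each lower, against 42.2% of all genes. They were Kdm1b at -1.14 (adjusted p = 0.00558), Eed at -0.82 (adjusted p = 0.00666) and Ehmt2 at -1.44 (adjusted p = 0.0487), in log2. Without GV_A oocyte 2, a run chosen after seeing the data, Kdm1b, Eed and Suz12 passed with spike-in scaling, each lower, and Ehmt2 did not (adjusted p = 0.0721). The median log2 change of the members was 0.38 with TMM and -0.38 with spike-in scaling, and 7 of 10 lay above the median of all genes in both.

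The 4 members that passed were near the threshold. Only 1 member passed without GV_A oocyte 4, GV_A oocyte 5, MII_A oocyte 1, MII_A oocyte 4 or MII_A oocyte 5, and 2 passed without GV_A oocyte 3, GV_A oocyte 6 or MII_A oocyte 3. Kdm1a was the member that passed in each of the 12 such runs, with an adjusted p from 0.00776 to 0.0368. Of all genes 1992 to 2577 passed in these runs, against 2661 with all 12 oocytes. With HTSeq counts, without a low-count filter and with the replicate block, Kdm1a alone passed, and Setdb1, Ehmt1 and Ezh2 did not. In a model of all 37 oocytes with stage and batch, Kdm1a had an adjusted p of 0.106 and Ezh2 alone passed.

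**Figure D1:**
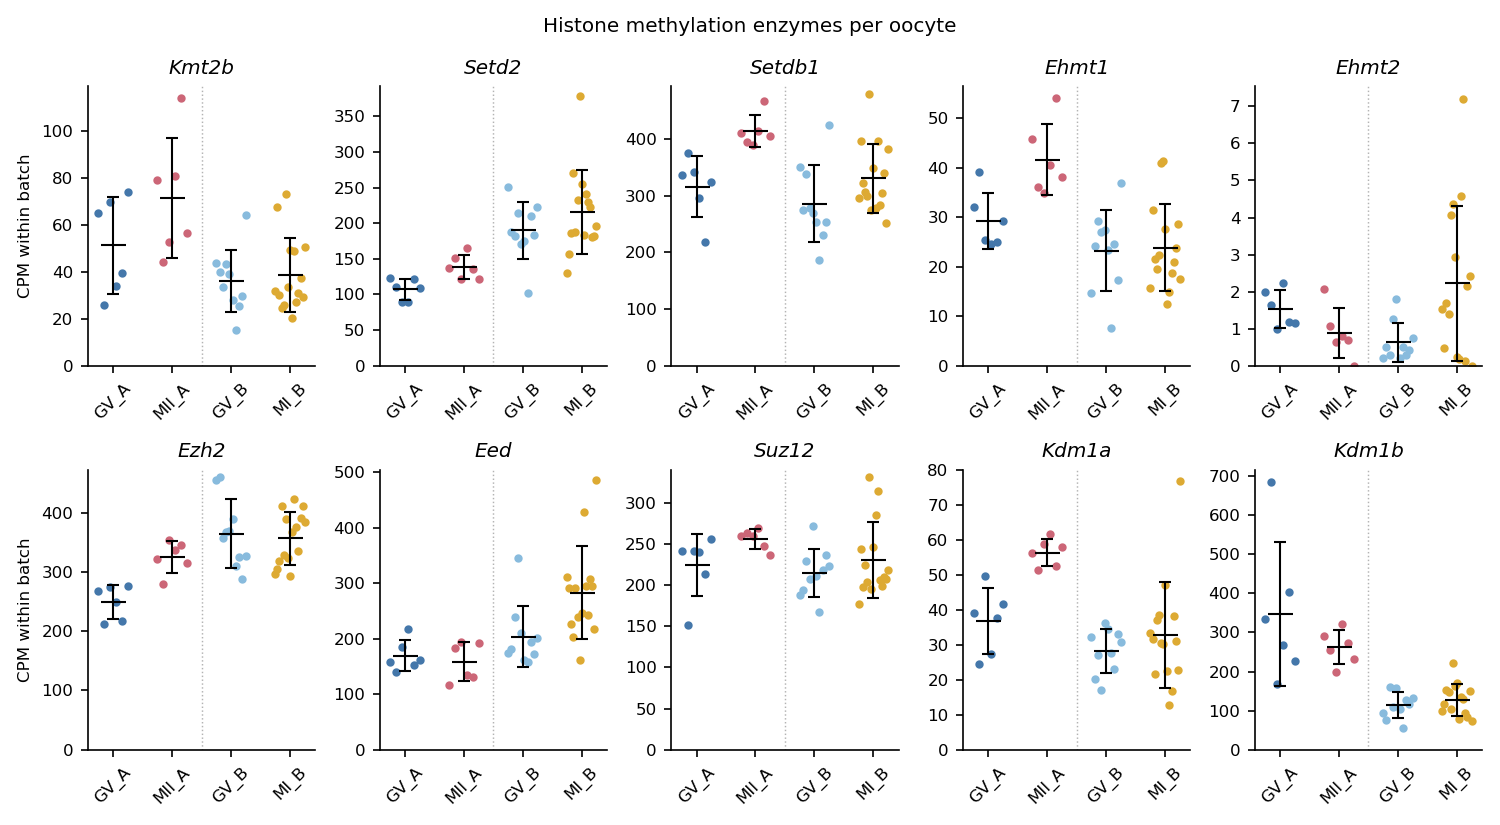
CPM of each member in every oocyte (y axis, CPM with TMM scaling within a batch) by group (x axis), with points for oocytes, black lines for the mean and bars for the SD; the dotted line parts the batches, whose CPM were scaled apart. The MII_A oocytes of Setdb1, Ezh2 and Kdm1a lie above the highest GV_A oocyte, while with spike-in scaling their log2 differences were negative and did not pass.

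Kmt2b encodes the writer of H3K4 trimethylation (ENSMUSG00000006307, chromosome 7 from 30568858 to 30588726, minus strand, GRCm38). In GV_A it had 25.9 CPM at the lowest, 52.1 at the median and 73.9 at the highest. In MII_A the lowest was 44.3, the median 67.7 and the highest 114 CPM. Both groups were widely spread and overlapped, and MII_A oocyte 5 was the highest. The log2 change was 0.47 with a 95% interval from -0.10 to 1.05 (adjusted p = 0.234), and -0.31 with spike-in scaling. GV_B oocytes had 15.2 to 64.0 CPM with a median of 36.1, and MI_B oocytes 20.2 to 73.2 with a median of 31.7. These ranges lay almost on top of each other, with a log2 difference of 0.09 (interval -0.34 to 0.52, adjusted p = 0.927).

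Setd2, the writer of H3K36 trimethylation (ENSMUSG00000044791, chromosome 9 from 110532597 to 110618633, plus strand), had 89.0, 109 and 123 CPM as lowest, median and highest in GV_A. The MII_A values were 121, 136 and 165 CPM. All 6 MII_A oocytes were above the GV_A median, but the lowest of them fell within the GV_A range. The log2 difference of 0.37 (interval 0.10 to 0.65) missed the threshold at an adjusted p of 0.0539, passed it with DESeq2 and with RLE size factors, and was -0.39 with spike-in scaling. GV_B ranged from 102 to 251 CPM with a median of 186. MI_B ranged from 130 to 378 with a median of 196 CPM. The highest value belonged to MI_B oocyte 7, and the groups overlapped, with a log2 difference of 0.18 (adjusted p = 0.685).

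Setdb1, the H3K9 methyltransferase that silences transposable elements (ENSMUSG00000015697, chromosome 3 from 95323525 to 95357202, minus strand), had 219, 331 and 375 CPM in GV_A as lowest, median and highest. In MII_A it had 389, 408 and 468 CPM. The groups did not overlap, and MII_A oocyte 5 was set apart from the 5 others, at 389 to 415. The log2 change was 0.39 with an interval from 0.11 to 0.67 (adjusted p = 0.0449), and with spike-in scaling it was -0.35 (adjusted p = 0.226). It passed in 1 of the 12 runs that leave out an oocyte. In batch B, GV_B ran from 186 to 424 CPM with a median of 272, and MI_B from 251 to 479 with a median of 306. Of the 15 MI_B oocytes, 14 were above the GV_B median, but the groups overlapped and the log2 difference of 0.21 did not pass (interval -0.04 to 0.46, adjusted p = 0.551).

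Ehmt1 encodes a writer of H3K9 dimethylation (ENSMUSG00000036893, chromosome 2 from 24789928 to 24919614, minus strand). Its lowest, median and highest values were 24.6, 27.4 and 39.1 CPM in GV_A. They were 35.0, 39.4 and 54.2 CPM in MII_A. GV_A oocyte 2 alone reached into the MII_A range. The log2 change of 0.51 (interval 0.17 to 0.85) had an adjusted p of 0.0341, passed in 5 of the 12 runs that leave out an oocyte, and was -0.23 with spike-in scaling. In GV_B the range was 7.71 to 36.9 CPM and the median 24.3. In MI_B it was 12.5 to 41.4 CPM with a median of 21.5. The groups overlapped throughout, with a log2 difference of 0.04 (adjusted p = 0.973).

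Ehmt2, the partner of Ehmt1 in the H3K9 dimethylation heterodimer (ENSMUSG00000013787, chromosome 17 from 34898469 to 34914052, plus strand), was at the edge of detection. GV_A oocytes had 13 to 20 rounded expected counts, or 0.992 to 2.23 CPM with a median of 1.41. MII_A oocytes had 0 to 20 counts, or 0.0 to 2.07 CPM with a median of 0.746. MII_A oocyte 6 had no count, which at its depth allows up to 0.298 CPM by counting error alone, and MII_A oocyte 1 was the highest of its group. The log2 difference of -0.78 had an interval from -1.93 to 0.37 (adjusted p = 0.336). It was -1.21 without MII_A oocyte 1 (adjusted p = 0.142) and -0.52 without MII_A oocyte 6 (adjusted p = 0.432). In GV_B there were 3 to 20 counts and in MI_B 0 to 87 counts, with medians of 0.47 and 1.7 CPM. MI_B oocytes were scattered over the whole range from no count to the highest value in the series, 7.19 CPM in oocyte 11, and the log2 difference of 1.84 (interval 0.59 to 3.10) did not pass (adjusted p = 0.208). The oocyte with no count was MI_B oocyte 15, whose depth allows up to 1.107 CPM by counting error alone. That limit was taken without TMM factors, unlike the GV_B median, which it exceeds. From HTSeq counts the batch A difference was -0.11, and Ehmt2 was left out by the low-count filter in batch B. The MI_B values also depended on the counting. HTSeq gave 23 counts in MI_B oocyte 11 where RSEM gave 87, and 0 in MI_B oocyte 6 where RSEM gave 37. In MI_B oocyte 5 HTSeq gave 128, its highest count of Ehmt2 in MI_B, and RSEM gave 69.

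Ezh2, the catalytic subunit of Polycomb repressive complex 2 (ENSMUSG00000029687, chromosome 6 from 47530139 to 47595341, minus strand), had 212, 259 and 277 CPM in GV_A as lowest, median and highest. MII_A oocytes had 280, 329 and 354 CPM. The groups were separate, with the lowest MII_A oocyte just above the highest GV_A oocyte. The log2 change of 0.38 (interval 0.13 to 0.63) had an adjusted p of 0.0304, passed in 6 of 12 runs that leave out an oocyte, and turned to -0.37 with spike-in scaling (adjusted p = 0.191). GV_B oocytes ran from 288 to 460 CPM with a median of 363. MI_B oocytes ran from 294 to 423 with a median of 368 CPM. These groups covered the same range, and the log2 difference of -0.03 had a narrow interval from -0.23 to 0.17 (adjusted p = 0.954).

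Eed, the subunit that binds trimethylated H3K27 (ENSMUSG00000030619, chromosome 7 from 89954654 to 89980983, minus strand), had 140, 160 and 218 CPM in GV_A as lowest, median and highest. MII_A had 117, 159 and 194 CPM. The medians were nearly equal and the oocytes overlapped, with a log2 difference of -0.09 (interval -0.43 to 0.24, adjusted p = 0.722) that became -0.82 with spike-in scaling. In batch B the GV_B oocytes had 159, 187 and 346 CPM. The MI_B oocytes had 161, 291 and 486 CPM. Of the 15 MI_B oocytes, 14 were above the GV_B median, MI_B oocyte 15 with its low depth was the highest, and the groups overlapped. The log2 difference of 0.47 (interval 0.16 to 0.78) did not pass after adjustment (adjusted p = 0.187, unadjusted p = 0.00379).

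Suz12, the scaffold subunit of the complex (ENSMUSG00000017548, chromosome 11 from 79993106 to 80034123, plus strand), had 152, 240 and 256 CPM in GV_A as lowest, median and highest. MII_A oocytes had 237, 260 and 270 CPM. GV_A oocytes 2 and 5 lay below all MII_A oocytes, the 4 others overlapped with MII_A, and the log2 difference of 0.19 did not pass (interval -0.08 to 0.47, adjusted p = 0.315) and was -0.55 with spike-in scaling. Values in GV_B were 167, 215 and 272 CPM and in MI_B 177, 210 and 331. The medians were close, at a log2 difference of 0.10 (adjusted p = 0.806).

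Kdm1a encodes an amine oxidase that removes methyl groups from H3K4 (ENSMUSG00000036940, chromosome 4 from 136550540 to 136602723, minus strand). In GV_A the lowest, median and highest values were 24.4, 38.5 and 49.8 CPM. In MII_A they were 51.3, 57.2 and 61.6 CPM. All 6 MII_A oocytes were above all 6 GV_A oocytes, and they lay closer together. The log2 change of 0.62 (interval 0.27 to 0.97, adjusted p = 0.0156) was the highest among the members, and it was -0.17 with spike-in scaling (adjusted p = 0.606). Kdm1a shares 4241 bases with Luzp1 on the other strand, which had a mean of 1055.7 counts in GV_A and 1248.0 in MII_A beside 411 and 577 for Kdm1a. Smart-seq2 does not mark the strand, so reads in the shared bases cannot be told apart. GV_B oocytes had 17.2, 29.2 and 36.1 CPM. MI_B oocytes had 12.8, 31.2 and 76.8 CPM, where the highest was oocyte 15. The groups overlapped, with a log2 difference of 0.20 (adjusted p = 0.788).

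Kdm1b, the related H3K4 demethylase of growing oocytes (ENSMUSG00000038080, chromosome 13 from 47043499 to 47085279, plus strand), had 168, 300 and 684 CPM in GV_A as lowest, median and highest. MII_A oocytes had 200, 265 and 321 CPM. GV_A oocyte 2 was the highest, the others had 168 to 404 CPM, and the groups overlapped. The log2 difference was -0.41 with an interval from -0.95 to 0.14 (adjusted p = 0.287), and -0.10 without that oocyte (adjusted p = 0.774). With spike-in scaling it was -1.14, and -0.90 without that oocyte (adjusted p = 0.024), a run chosen after seeing the data. GV_B oocytes had 55.3, 113 and 161 CPM. MI_B oocytes had 73.5, 129 and 223 CPM. They overlapped, and the log2 difference of 0.18 did not pass (adjusted p = 0.774). Kdm1b also shares bases with Tpmt and Dek on the other strand, 1239 and 505 of them. Tpmt had a mean of 500 counts in GV_A and 202 in MII_A, and Dek 842 and 1064.3, and their part in the Kdm1b values was not tested.

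**Figure D2:**
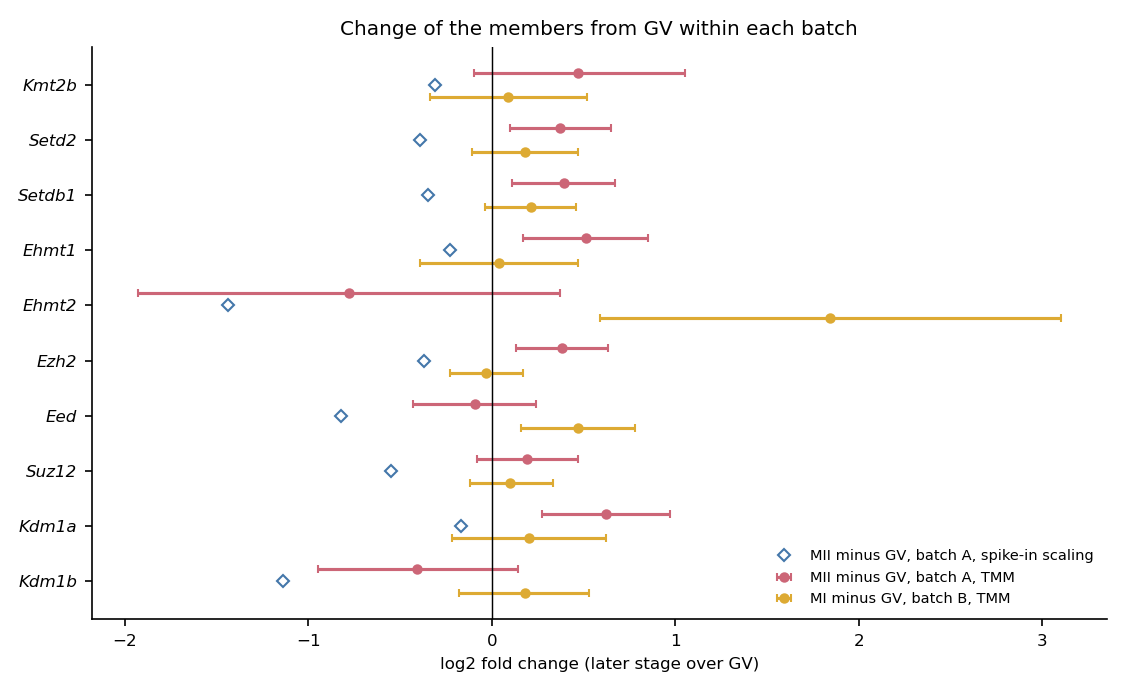
Log2 change of each member from GV (x axis) to MII in batch A and to MI in batch B, with 95% intervals as bars for TMM scaling and open diamonds for batch A with spike-in scaling. With TMM 7 of 10 members have a positive value in batch A, and with spike-in scaling 0 of 10 do.

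Between GV and MI in batch B, which covers the step from the resting oocyte to metaphase I, 0 of 10 members passed an adjusted p of 0.05 in edgeR, against 0.145% of 12419 genes, and 0 of 10 were also over 2-fold, against 0.121% of genes. DESeq2 also passed 0 members. At an unadjusted p under 0.05, 1371 of all genes and 2 members, Ehmt2 and Eed, were found. The median log2 difference of the members was 0.18, and 0.02 over all genes. Spike-ins were not counted at a usable level in batch B, so a loss or gain shared by all RNA could not be measured there.

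Whether the change to MII differed from the change to MI was tested in a model of all 37 oocytes. Of the 10 members 0 passed in edgeR, against 5.45% of 15083 genes. DESeq2 passed 1 member, Ezh2, with an adjusted p of 0.0284, and the share of all genes that DESeq2 passed is not given here. In edgeR the difference for Ezh2 was 0.48 in log2 (interval 0.16 to 0.81, adjusted p = 0.0683), for Eed -0.49 (interval -0.99 to 0.01, adjusted p = 0.293) and for Ehmt2 -2.57 (interval -4.54 to -0.60, adjusted p = 0.126). At an unadjusted p under 0.05 the count was 2671 for all genes and 2 for the members. Batch, culture and stage cannot be told apart in this contrast.

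The GV oocytes of the 2 batches were compared in the model of all 37 oocytes. In edgeR with TMM scaling, 5 of the 10 members were lower in GV_A than in GV_B, against 16.2% of all genes. Higher in GV_A was 1 member, against 13.3% of all genes. Ezh2 was lower by a log2 difference of -1.08 (interval -1.33 to -0.84, adjusted p = 2.31e-09) and Setd2 by -1.37 (interval -1.72 to -1.02, adjusted p = 2.87e-08), in log2. In mean TPM Ezh2 had 307 in GV_A and 438 in GV_B, while Setd2 was nearly equal, at 63.2 ± 14.3 and 66.2 ± 16.9 (SD). The other lower members were Eed at -0.80 (adjusted p = 0.000676), Suz12 at -0.48 (adjusted p = 0.00574) and Setdb1 at -0.39 (adjusted p = 0.0408). Eed was also lower in mean TPM, at 187 in GV_A and 249 in GV_B. The direction of Suz12 and Setdb1 turned in mean TPM, at 103 and 98.1 for Suz12 and 148 and 126 for Setdb1. The GV_A and GV_B oocytes of Setd2, Ezh2 and Eed did not overlap in CPM scaled over all 37 oocytes, 3 of 10 members, against 10.1% of 15083 genes in either direction. In TPM the same oocytes overlapped for all 3, at 49.7 to 86.3 in GV_A and 30.1 to 86.7 in GV_B for Setd2. The TPM ranges were 245 to 400 and 255 to 589 for Ezh2, and 148 to 214 and 131 to 389 for Eed. Kdm1b was higher in GV_A, with a log2 difference of 1.08 (interval 0.62 to 1.53, adjusted p = 0.000207). Markers also differed in this contrast. The cumulus markers Gja1 at -1.98 (edgeR adjusted p = 0.0466) and Cyp11a1 at 2.61 (edgeR adjusted p = 0.0153) went opposite ways. The blood marker Hbb-bs had a mean of 0.0102 CPM in GV_A and 2.49 in GV_B (edgeR adjusted p = 1.11e-05). Zp1, Zp2 and Zp3 were higher in GV_A, by 2.07, 1.93 and 2.2 in log2. The part of these markers in the members' differences was not tested. No spike-in scaling exists for this contrast, so it was run with TMM alone, and the batch and the libraries in it cannot be told apart.

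Ratios between members within an oocyte do not depend on the scaling of libraries. Of 12 comparisons of 6 pairs in the 2 batches, 0 passed after adjustment, with permutation tests that were two-sided and exact in batch A. The Ezh2 to Eed ratio, on a log2 scale, was 0.56 ± 0.21 in GV_A and 1.06 ± 0.38 in MII_A, a difference of 0.49 (SD, n = 6 and 6, exact permutation p = 0.0216, adjusted p = 0.0864). In batch B the same log2 ratio was 0.86 ± 0.40 in GV_B and 0.38 ± 0.43 in MI_B, a difference of -0.48 (SD, n = 10 and 15, permutation p = 0.0104, adjusted p = 0.0624). The 2 subunits of the complex thus had log2 ratios that were higher at MII and lower at MI, in ranges that overlapped in both batches, and neither difference passed. The log2 ratio of Kdm1b to Kdm1a was 3.13 ± 1.03 in GV_A and 2.20 ± 0.26 in MII_A (SD, n = 6 and 6, exact permutation p = 0.0368, adjusted p = 0.0883). Its highest GV_A value, 4.81, belonged to GV_A oocyte 2, with 8303 counts of Kdm1b and 296 of Kdm1a, and raised the GV_A mean. For Ehmt1 to Ehmt2 the log2 ratio was 4.26 ± 0.47 in GV_A and 6.06 ± 1.78 in MII_A (SD, n = 6 and 6, exact permutation p = 0.00866, adjusted p = 0.0624). Few counts of Ehmt2 lie behind this ratio, and on average most of them came from forms not annotated as protein-coding. The highest MII_A value, 9.49, rests on the pseudocount of 0.5, since MII_A oocyte 6 had no count of Ehmt2, and with a pseudocount of 5 the difference was 1.15 in place of 1.80 (adjusted p = 0.0624). The remaining comparisons had adjusted p from 0.0883 to 0.875.

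In GV_A the coefficient of variation of the CPM was 11.6% for Ezh2 and 53.0% for Kdm1b, and in MII_A it was 4.6% for Suz12 and 77.6% for Ehmt2. GV_A oocyte 2 had 684 CPM of Kdm1b and the other GV_A oocytes 168 to 404, so that oocyte raised the Kdm1b value. Kdm1a had 25.6% in GV_A and 7.03% in MII_A.

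In the reported edgeR fit none of the members' transcripts passed in either batch. In batch A 35 transcripts of 9 members were tested and 0 had an adjusted p under 0.05 in edgeR, against 9.3% of 22465 transcripts, while 6 had an unadjusted p under 0.05, as had 5439 of all. DESeq2 passed 2 of them. In batch B 43 transcripts were tested and 0 passed, against 0.0% of 22719, with 4 at an unadjusted p under 0.05, as had 1616 of all, and DESeq2 passed 1. Transcript usage, the share of each transcript in its gene, passed for 0 of 9 members in batch A, against 2.06% of 5479 genes, and for 0 of 9 in batch B, against 0.0542% of 5537 genes, and by the gene-level F test for 0 in each. The lowest unadjusted gene-level usage p was 0.417 in batch A and 0.304 in batch B. For single transcripts it was 0.0872 in batch A, for a retained intron form of Ezh2, and 0.056 in batch B, for Ehmt1-203. Ehmt2 had no transcript above the filter.

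The leading transcript was shared between stages and differed between batches for Ezh2. In GV_A Ezh2-201, of 2787 bases, took 42.4 ± 8.88% of the gene's transcript counts (SD, n = 6) and in MII_A 43.7 ± 3.03%, while Ezh2-202, of 2115 bases, took 23.1 ± 4.12% and 25.9 ± 1.92%. In GV_B the share of Ezh2-201 was 20.8 ± 10.6% (n = 10) and in MI_B 15.1 ± 8.99% (n = 15), and that of Ezh2-202 was 49.8 ± 10.1% and 55.1 ± 7.62%. The oocytes of batch A and B did not overlap for Ezh2-202, whose highest share in batch A was 29.4% and lowest in batch B 36.4%. Suz12-201 led in all groups, with shares of 54.9%, 56.3%, 87.7% and 85.1% in GV_A, MII_A, GV_B and MI_B. Its partner Suz12-206 had 44.9%, 43.4%, 11.6% and 14.4%. Setd2-201 led likewise, with 67.7%, 65.4%, 76.4% and 82.4%. Setd2-210 had 16.3%, 19.2%, 1.91% and 1.1% in the same order and Setd2-204, a retained intron form, 14.6%, 12.1%, 3.08% and 1.75%, with no overlap between the batches. Setd2-203, a form annotated for nonsense-mediated decay, had 0.408%, 1.45%, 16.2% and 12.6%. Suz12-206 and the Setd2 forms other than Setd2-201 were chosen after their values were seen, and none of the shares was tested between batches. How many of all transcripts lack overlap in share between the batches was not counted. It therefore cannot be told whether this is particular to these members. By mean counts Kmt2b-206, Setdb1-202, Ehmt1-210, Eed-201 and Kdm1b-201 led in all 4 groups. Kdm1a-202 and Kdm1a-203, of 3028 and 3008 bases, took turns as the leading form by mean counts, with 225 and 184 in GV_A, 275 and 294 in MII_A, 153 and 200 in GV_B, and 240 and 139 in MI_B. The share of Kdm1a-202 within an oocyte ran from 10.7% to 100% in GV_A and from 0.0% to 100% in GV_B. Ehmt2-212, a non-coding transcript of 675 bases, led for Ehmt2 on a few counts.

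**Figure D3:**
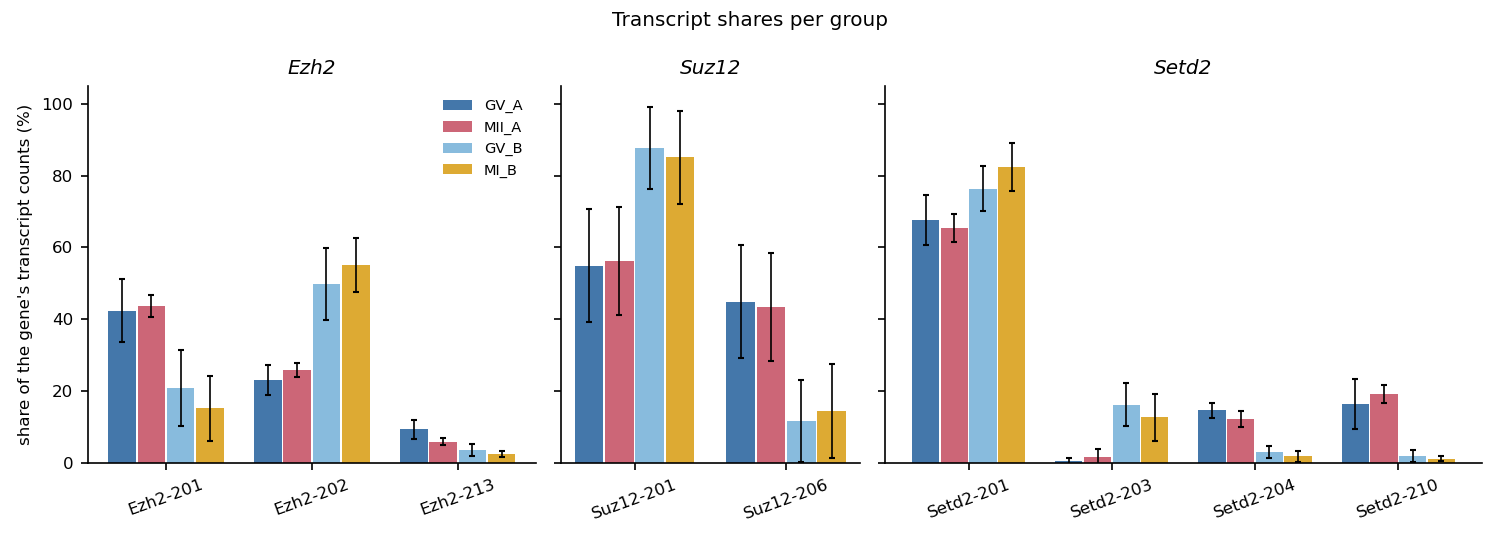
Mean share of a gene's transcript counts (y axis, percent) for transcripts of Ezh2, Suz12 and Setd2, with bars for the 4 groups and error bars for the SD over oocytes. GV and the later stage of a batch have similar shares, while Ezh2-202 takes 23.1% in GV_A and 49.8% in GV_B.

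The end of the messenger RNA carries the signals for cleavage and for cytoplasmic polyadenylation, by which stored RNA is used in maturing oocytes. In the last 100 bases of each member's most counted protein-coding transcript, in the GENCODE M21 sequence on the transcript strand, the poly(A) signal AATAAA or ATTAAA was found for 8 of 10 members, against 79.4% of 11152 genes. The cytoplasmic polyadenylation element TTTTAT or TTTTAAT was found for 5 of 10, against 19.2% of those genes. Kmt2b, Setd2, Setdb1, Eed and Kdm1a held the element. Ezh2-202 and Kdm1b-201 had none of these letters in the window. Ezh2-201, which led in batch A, ends at another position, and its end was not analysed here. For those 5 members the 30 bases around the poly(A) signal nearest the end are shown 5′ to 3′, with poly(A) signals and any element letters in capitals, and none of these windows holds a whole element:
Kmt2b-206: gaatccccccacAATAAAgtctgtcagcgt
Setd2-201: aaAATAAAatcaATTAAAgaacttggaatg
Setdb1-202: taatatactttaATTAAAaaaaattaacag
Eed-201: caaactggaagaAATAAAgttgtaccatat
Kdm1a-202: ATatattttgagAATAAAactttaaaataa
The signal begins 21 bases before the end in Kmt2b-206, 35 in Setd2-201, 20 in Setdb1-202, 38 in Eed-201 and 31 in Kdm1a-202, and the element nearest the end begins at 63, 57, 46, 67 and 13 bases. The transcripts end on chromosome 7 at 30568860, chromosome 9 at 110618633, chromosome 3 at 95323525, chromosome 7 at 89954654 and chromosome 4 at 136550544 of GRCm38, the Setd2 transcript on the plus strand and the others on the minus strand. A match of letters is a description of the annotated sequence and not a mapped site.

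Of 63 other genes of these pathways, 61 were tested in batch A, and 9 passed and were higher at MII (14.8%) and 2 were lower (3.28%), with TMM scaling. Of all genes 9.06% were higher and 11.5% lower. Without MII_A oocyte 1 the counts were 6 higher and 1 lower, since Kmt2c, Setd1a, Phf2 and Hdac1 did not pass. With spike-in scaling 0 genes of these lists were higher and 15 were lower (24.6%), against 42.2% of all genes lower. These were 3 of 11 H3K4 methyltransferases and COMPASS subunits, 5 of 10 H3K9 methyltransferases and partners, 3 of 15 demethylases, 3 of 8 LSD demethylase partners and 1 of 4 methyltransferases of other lysines. The counts by list that follow are with TMM scaling. Among H3K4 methyltransferases and COMPASS subunits 2 of 11 were higher, Kmt2c and Setd1a, both chosen after their values were seen, and 1 was lower. The lower gene, Men1, which encodes menin, the subunit that joins MLL complexes to chromatin, had 21.5, 25.9 and 40.2 CPM in GV_A as lowest, median and highest. In MII_A it had 7.75, 9.75 and 15.7 CPM. No oocyte of MII_A reached GV_A, and the log2 change of -1.41 (adjusted p = 0.000947) stayed negative and past the threshold in the 21 alternatives run, spike-in scaling among them. Dpy30, a core COMPASS subunit, was the most abundant of that list at 185 ± 45.2 TPM in GV_A (SD, n = 6). It had a log2 difference of 0.52 (adjusted p = 0.130), and -0.23 with spike-in scaling. Hdac1, a deacetylase that works with KDM1A, was lower with a log2 change of -1.08 (adjusted p = 0.0482), from 6.39 to 2.34 CPM at the median, and did not pass without GV_A oocyte 1, 2, 4 or 5 or MII_A oocyte 1, 3, 4 or 5, each left out in turn.

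Among 10 H3K9 methyltransferases and partners 2 were higher and 0 lower with TMM scaling, and 0 higher and 5 lower with spike-in scaling. Trim28, the corepressor that recruits SETDB1, was one of them and the most abundant of the list at 126 ± 36.4 TPM in GV_A (SD, n = 6). It had a log2 change of 0.66 (adjusted p = 0.0141) that was -0.10 with spike-in scaling. The other, Atf7ip, which stabilizes SETDB1, had 0.44 (adjusted p = 0.0169, -0.31 with spike-in scaling) and was chosen after its values were seen. Of 9 partners of Polycomb repressive complex 2, only Rbbp7, a histone-binding subunit, passed, and it was the most abundant of the list at 1121.0 ± 261.0 TPM in GV_A (SD, n = 6). It had a log2 change of 0.60 (adjusted p = 0.0322) that turned to -0.08 with spike-in scaling, and passed in 4 of the 12 runs that leave out an oocyte. Of 15 histone lysine demethylases tested 3 were higher, Kdm6a, Kdm7a and Phf2, all chosen after their values were seen. Kdm6a, the H3K27 demethylase, had a log2 change of 0.78 (adjusted p = 0.00254, 0.02 with spike-in scaling). Kdm2b, the most abundant of that list at 149 ± 29.2 TPM, had a log2 difference of -0.05 (adjusted p = 0.884) that changed sign between alternatives. With spike-in scaling it was -0.79 and passed (adjusted p = 0.0274). The 4 other H3K36 methyltransferases, led by Nsd1 at 53.9 ± 14.4 TPM, and the 4 methyltransferases of other lysines, led by Kmt5a at 23.5 ± 4.31 TPM, held no gene that passed with TMM scaling, while 1 of the latter 4 was lower with spike-in scaling. Of 8 LSD demethylase partners Rcor1, chosen after its values were seen, was higher and Hdac1 lower, and Hdac2 at 43.0 ± 3.78 TPM was the most abundant. In batch B 0 of 60 genes of these lists passed in edgeR, against 0.145% of all genes, with 9 at an unadjusted p under 0.05, and DESeq2 passed 1 as lower.

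For each member the gene with the most similar pattern was sought by the Pearson r of log2 CPM, centred on group means, over 37 oocytes and 15082 genes, as a description only, since oocytes share library depth and batch. Kmt2b was most like Ppp1r9b (r = 0.87), Setd2 like Crybg3 (0.77), Setdb1 like Taf3 (0.84), Ehmt1 like Ift140 (0.72) and Ehmt2 like Dnmbp (0.73). Ezh2 was most like Rock1 (r = 0.67), Eed like Sdf2 (0.71), Suz12 like Shoc2 (0.73), Kdm1a like Eif4ebp3 (0.76) and Kdm1b like Lcp1 (0.79). Between members r was highest for Kmt2b and Setdb1 at 0.72 and lowest for Ehmt2 and Kdm1a at -0.53.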

How the data were processed

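The authors trimmed reads with Trim Galore 0.6.4, aligned them to mm10 with STAR 2.7.6a and the GENCODE VM20 annotation, and deposited gene counts from HTSeq 0.12.4. The deposited expected counts of genes and transcripts were made by the authors with RSEM 1.3.1. Whether counting used strand is not given in the sources used here. Expected counts were rounded to whole numbers and tested with the quasi-likelihood test of edgeR 4.0.16 in R 4.3.3, with TMM factors, the filterByExpr filter and Benjamini-Hochberg adjustment over all features tested, at an adjusted p of 0.05 and, for the study's call, a fold of 2. GV was set against MII in batch A (6 and 6 oocytes) and against MI in batch B (10 and 15), with the difference of the changes and the GV oocytes of both batches compared in 1 model. Transcript usage was tested with diffSpliceDGE. Ratios had a pseudocount of 0.5 and two-sided permutation tests, exact in batch A and with 100000 resamples in batch B. DESeq2 1.42.0 was an alternative. The rest was done in Python 3.11.15 (scipy 1.17.1 for permutations, pandas 2.3.3 and numpy 2.4.6 for tables, plots by matplotlib 3.10.9).

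Gene positions and transcript sequences were those of GENCODE M21 on GRCm38, which matched 54723 of 54844 identifiers, 92 of them spike-ins. The motif search read annotated transcript sequences, as a genome was not used here. Intervals are at 95%, and the limit for 0 counts is 3 counts of the total, without TMM factors. Both cover counting or fitted error only, since reads carried no molecular identifiers. No oocyte columns were identical among 666 pairs. The fits were tested on simulated data. The simulation was made easier after a first version recovered few changes, with filtered features, higher means and larger folds. Small changes and changes of usage were often missed in the simulation. The lowest fold in the easier version was 2, above the changes of the members that passed in batch A with TMM scaling. It therefore does not show how well changes of their size are found. Members and lists were chosen with earlier results of these data known. Named genes were all members, the genes of each list past the adjusted p and 2-fold thresholds (at most 5 a list), the most abundant gene of each list by TPM, the leading transcripts and the most similar gene of each member.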

Additional observations from a re-analysis of the deposited data

Results flagged for a closer look

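Among the 10 members in 3 groups of 6 or 10 oocytes, 2 of 30 sets of values held an oocyte whose gap to the nearest other, as a share of the whole range, was above Dixon's 95% critical value, where chance gives about 1 in 20. Setdb1 had 468 CPM in MII_A oocyte 5, where the others had 389 to 415, and Eed had 346 CPM in GV_B oocyte 4, where the others had 159 to 239. MII_A oocyte 1 had 29836 genes with a count, and the others of its group 19587 to 22620.

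The change from GV to MII in batch A differed from the change from GV to MI in batch B for 8 of 86 list genes (9.3%), by the edgeR test of the difference itself, against 5.45% of all genes, while no member passed it. These list genes include the oocyte, cumulus and blood markers. Of 62 tested genes of the pathway lists alone, 3 passed with a positive difference (4.84%) and 1 with a negative one (1.61%). The difference of log2 changes was 1.28 for Dpy30 (adjusted p = 0.0137), 0.93 for Kdm6a (adjusted p = 0.00876) and 0.72 for Rbbp7 (adjusted p = 0.0223, and 0.0617 with HTSeq counts). For Hdac1 it was -1.89 (adjusted p = 0.0484), and it did not pass without MII_A oocyte 1 (adjusted p = 0.0903), without a filter (adjusted p = 0.0512) or with HTSeq counts (adjusted p = 0.324). The zona pellucida genes Zp1, Zp2 and Zp3 had differences of -1.42 (adjusted p = 0.00127), -1.74 (adjusted p = 0.000131) and -1.86 (adjusted p = 0.00193). Hbb-bs, a globin, had 5.40 (adjusted p = 0.00891), which is no measured fold, since its mean in GV_A was 0.0102 CPM and it was left out by the low-count filter in batch A. Without MII_A oocyte 1, which had the highest blood marker sum of its group at 14.0 CPM, it was 1.94 and did not pass (adjusted p = 0.446). Stage, culture and batch cannot be told apart in these differences.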

How the results depend on the processing

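With spike-in scaling in batch A the sign turned for Kmt2b (-0.31), Setd2 (-0.39), Setdb1 (-0.35), Ehmt1 (-0.23), Ezh2 (-0.37), Suz12 (-0.55) and Kdm1a (-0.17), and for Dpy30 (-0.23), Nsd1 (-0.30), Trim28 (-0.10), Rbbp7 (-0.08), Kmt5a (-0.48), Hdac2 (-0.53) and Atf7ip (-0.31), in log2. Without GV_A oocyte 2 as well, chosen after seeing the data, these were -0.46, -0.42, -0.32, -0.17, -0.43, -0.66 and -0.29 for the members in this order, and -0.27, -0.28, -0.23, -0.13, -0.59, -0.59 and -0.29 for the others, and Kdm6a turned to -0.09. The scaling itself moved the median of all genes, and the cause was not tested. Kdm2b was -0.79 with spike-in scaling and passed as lower, turned to 0.34 with HTSeq counts, 0.35 with these and without MII_A oocyte 1, and 0.00 with stage and batch in 1 model, and ranged from -0.16 to 0.04 with 1 oocyte left out. The change of the Kmt2b to Kdm1b log2 ratio from GV to MI in batch B was -0.08, and 0.00 without MI_B oocytes 4, 8 and 9. In these oocytes the HTSeq totals fell furthest below the RSEM totals. They were 8658057, 12290988 and 7126122 counts with HTSeq and 13358063, 19390128 and 13460604 with RSEM.

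In batch A 4 members passed in the reported fit, 5 with DESeq2 or RLE factors and 3 with spike-in factors, with or without GV_A oocyte 2. It was 1 without a filter, with HTSeq counts, with stage and batch in 1 model, and with HTSeq counts without MII_A oocyte 1, which was chosen after seeing the data. Leaving out 1 oocyte gave 1 to 4: 1 without GV_A 4, GV_A 5, MII_A 1, MII_A 4 or MII_A 5, 2 without GV_A 3, GV_A 6 or MII_A 3, and 3 without MII_A 2 or 6. Of all genes 2661 passed, and 5598 with spike-in factors, 5216 with these and without GV_A oocyte 2, 1234 with stage and batch, and 1585 with HTSeq counts without MII_A oocyte 1. Over 2-fold they were 1095, and 1863 without a filter, 3920, 3886, 653 and 688 in the 4 last settings.

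In batch B 0 members passed in the reported fit and in the 9 alternatives. Of all genes 18 passed, 155 with DESeq2, 44 without a filter, 149 with stage and batch, 39 without MI_B oocytes 4, 8 and 9, and 0 with HTSeq counts, with or without these oocytes. Over 2-fold they were 15, and 110 with DESeq2, 40 without a filter, 107 with stage and batch, 36 without MI_B oocytes 4, 8 and 9, and 0 with HTSeq counts, with or without these oocytes, and with the replicate block. For the difference of the changes 822 genes passed, 1621 without a filter, 319 with HTSeq counts and 512 without MII_A oocyte 1, and DESeq2 passed 1 member, Ezh2. Of member transcripts in batch A 0 passed, 1 without a filter, 2 with DESeq2, 4 with spike-in factors (chosen after seeing the data), and 0 to 1 with 1 oocyte left out, the 1 being without GV_A oocyte 2. In batch B DESeq2 passed 1. Of all transcripts 2089 passed in batch A, 3421 with DESeq2 and 5142 with spike-in factors, and in batch B 0, 120 with DESeq2 and 2 without a filter. Transcript usage passed for 113 and 3 genes, and for 285 and 5 by the F test. The cause of these differences was not tested.

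The numbers of the oocytes did not pair them: correlations of same-numbered oocytes ran from -0.25 to 0.307 in batch A, with 1 of 6 over 0.1, and from -0.092 to 0.059 in batch B. With the replicate block 1 member and 1588 genes passed in batch A, 626 transcripts did, and 0 genes passed in batch B.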
